A study of Mus musculus with 4 samples.

Results

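ATF4 sites that lay far from genes were described among the peaks of cortical neurons depleted of Opa1. A knock-down peak was counted as lying between genes when its summit, the position of highest signal, was inside no protein-coding or long non-coding RNA (lncRNA) gene and more than 5 kb from the ends of all 34614 such genes. Of the 952 peaks in the knock-down list, 296 met this rule (31.1%). The other peaks fell into 359 deeper inside a gene and 297 within 5 kb of a gene end. The rule used position alone and neither signal strength nor presence in the control list. At the limit, the nearest peaks on the inner side had summits 5054, 5132 and 5137 bp from a gene end (fold enrichments 6.21, 7.65 and 7.39). The nearest on the other side were 4987, 4853 and 4851 bp away (6.69, 18.2 and 12.5).

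Chromatin came from wild-type primary neurons of embryonic day E14.5-15 cortex of CD1 mice, an outbred stock, so no line or clone was used. Lentiviral transduction on day 6 carried a hairpin labelled shControl or shOpa1, and harvest was on day 11; both groups received the mitotic inhibitor cytosine arabinoside. The labels gave 1 ATF4 library from shControl neurons and 1 from shOpa1 neurons, and control IgG and input libraries that were not analysed here. The series does not measure Opa1 or other transcripts, so neither the knock-down nor the makeup of the cultures was checked. No difference between conditions was tested, because each had a single library. Intervals below are exact 95% Clopper-Pearson (shares) or Poisson (tags, densities) intervals and cover counting error only.

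ATF4 is a basic leucine zipper (bZIP) factor whose protein is made when eIF2 alpha is phosphorylated under stress, including stress that starts in mitochondria. It pairs with C/EBP and other bZIP proteins, and the composite C/EBP-ATF element TGATGNAA is its well-known recognition sequence. Opa1 is a GTPase of the inner mitochondrial membrane that fuses and shapes it. Many transcription factors bind between genes, where a site may act on a distant promoter or on none, so the nearest gene named below gives a position and not a target.

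The 296 peaks carried 9755 of the 33318 tags in the knock-down peaks, over 175 of 572 kb. Their median width from start to end was 588 bp (303 to 1536 bp) and their median tag number 28. The peaks at both ends of this range had shorter deposited lengths, of 101 and 512 bp. The authors' fold enrichment over the caller's background had a median of 7.65, quartiles of 6.25 and 10.04, and a maximum of 29.6. Peaks inside genes had a median fold of 8.13 and a maximum of 38.2, and peaks near gene ends 8.6 and 52.1. A fold of at least 10 was reached by 75 of 296 peaks between genes (25.3%, 20.5 to 30.7), where 29.9% of all knock-down peaks reached it. The share was 27.6% (23.0 to 32.5) inside genes and 37.4% (31.9 to 43.1) near gene ends. A fold of at least 20 was reached by 8 peaks between genes, or 2.70%, against 3.57% of all knock-down peaks. Strength between genes thus overlapped that of the other classes over most of its range, and the list's strongest peaks lay elsewhere.

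**Figure D1:**
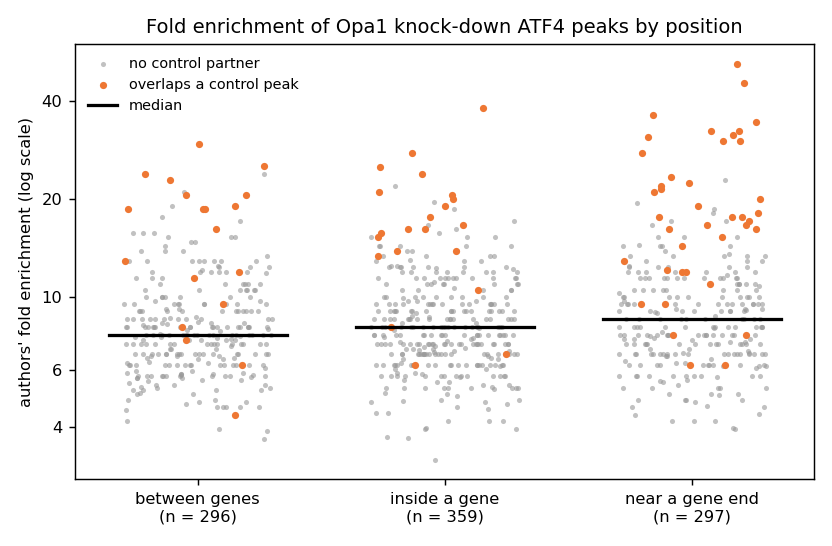
Authors' fold enrichment (log scale) of each Opa1 knock-down ATF4 peak by position class; orange points overlap a control peak, grey points do not, and bars are medians. Medians were 7.65 between genes, 8.13 inside genes and 8.6 near gene ends, and 6 of the 8 peaks between genes with a fold of at least 20 overlapped a control peak, as did 30 of 34 such peaks in the whole list.

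Per base, the space between genes was the part of the genome with the fewest peaks. Positions that satisfy the rule made up 48.0% of the bases from 5 kb before the first to 5 kb after the last gene of each chromosome, or 1297 Mb, and held 31.1% of the knock-down peaks. Their density was 0.228 peaks per Mb (0.203 to 0.256), or 1 peak in 4.38 Mb. Inside genes it was 0.392 (0.352 to 0.434) and near gene ends 0.607 (0.540 to 0.680). The order was the same on autosomes alone (0.268, 0.405 and 0.631). In the control list the densities were 0.0193 (0.0125 to 0.0285), 0.0262 and 0.0900, and the intervals of the first and second classes overlapped. Mappable length was not used here, and unmappable repeats are counted in the denominators.

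**Figure D2:**
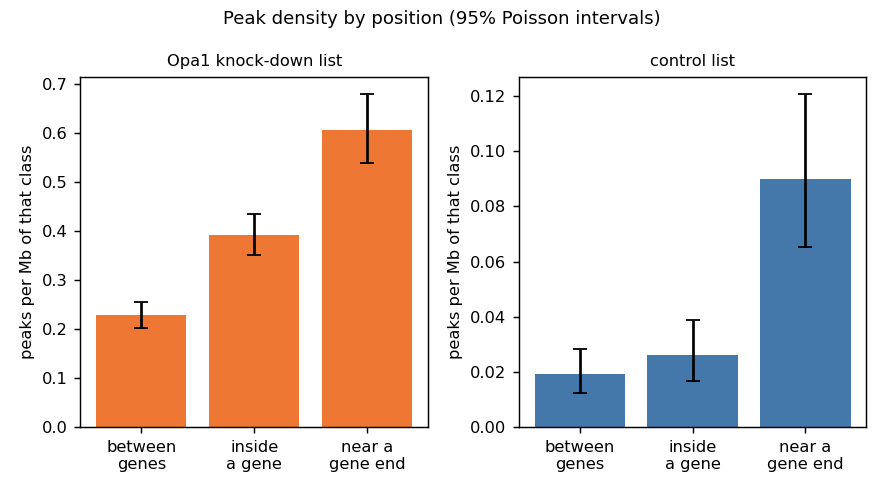
Peaks per Mb of each position class in the knock-down list (left) and the control list (right), with 95% Poisson intervals; the vertical scales differ. Peaks between genes had the lowest density in the knock-down list, at 0.228 per Mb, with an interval that overlaps neither of the other classes.

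Every autosome carried peaks between genes, from 6 on chromosome 19 to 25 on chromosome 1, at 0.166 (chromosome 14) to 0.411 (chromosome 15) per Mb of such space. The X chromosome had 1, a peak of fold 4.83 and 21 tags with Mageb18 as its nearest coding gene, in 110.8 Mb of gene-free space (0.00902 per Mb). In all, 9 knock-down peaks lay on X. No knock-down peak of any class lay on Y. The embryos' sex is not in the labels.

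**Figure D3:**
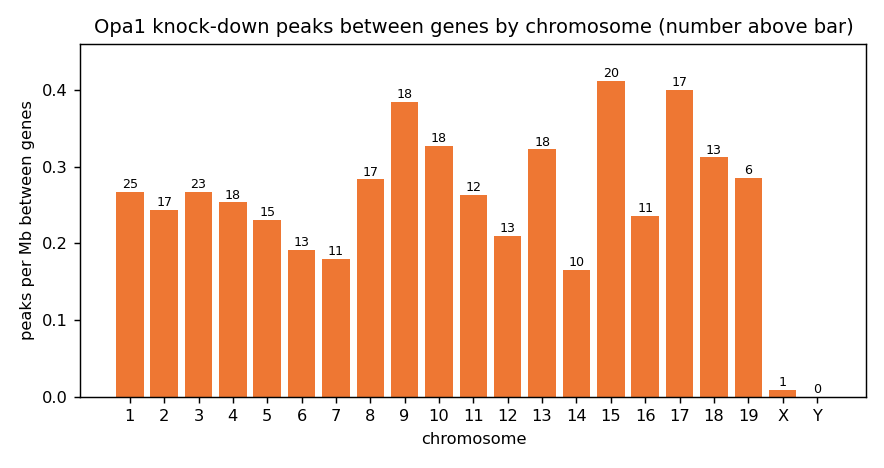
Opa1 knock-down peaks between genes per Mb of space that satisfies the rule, by chromosome, with the number of peaks above each bar. Autosomes ranged from 0.166 to 0.411 per Mb, X held 1 peak and Y held 0.

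Overlap with the control list by at least 1 bp was found for 19 of the 296 peaks (6.42%, 3.91 to 9.84), where 8.4% of all knock-down peaks overlapped a control peak. The share was 5.85% (3.66 to 8.80) inside genes and 13.5% (9.80 to 17.9) near gene ends; these differences were not tested, as peaks of a single library are not replicates. Seen from the other side, 25 of the 93 control peaks lay between genes, and 19 of them (76.0%, 54.9 to 90.6) had a knock-down partner, against 86% of all control peaks. All 19 control partners were themselves classed as between genes. Shared peaks were concentrated at the top of the knock-down list. Among the 20 peaks between genes with the highest fold, 11 were shared, and among the other 276, 8 were. The median knock-down fold was 18.6 for shared and 7.65 for unshared peaks. The whole list showed the same order, with medians of 17.6 and 7.65 over all knock-down peaks. They were 16.25 and 7.65 inside genes, and 17.7 and 8.13 near gene ends. Of the 75 with a fold of at least 10, 14 were shared (18.7%), against 66 of all 285 such knock-down peaks (23.2%). The share was 18.2% of such peaks inside genes and 30.6% near gene ends.

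The strongest peak between genes was shared. It lay at chr2:92055180-92055996 (mm10), with 58 tags (44 to 75) and a fold of 13.2 in the control list and 103 tags (84.1 to 125) and a fold of 29.6 in the knock-down list. It ranked 3 of 93 among control peaks and 14 of 952 among knock-down peaks. The nearest coding gene was Creb3l1, 31.4 kb away, which encodes a bZIP factor held in the endoplasmic reticulum membrane and released by proteolysis; the lncRNA gene Gm31473 was nearer, at 10.3 kb. On the other side, the chromatin protein gene Phf21a was 128 kb away.

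The second lay at chr5:148418900-148419711, 19.4 kb upstream of Slc7a1, which encodes a cationic amino acid transporter that takes up arginine and lysine. It had 21 tags (13.0 to 32.1) and a fold of 6.9 in the control list and 94 tags (76.0 to 115) and a fold of 25.3 in the knock-down list. Its ratio of folds, 3.67, was the highest of the 19 shared peaks. Slc7a1 was also among the nearest genes with a knock-down peak of their own: a weaker peak (fold 9.14, 69 tags), 373 bp inside its upstream end, had no control partner.

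Further shared peaks in the upper part of the list lay 7.09 kb upstream of Serpinh1, 17.9 kb upstream of Lcorl and 12.7 kb upstream of Adpgk. Serpinh1 encodes HSP47, a collagen chaperone of the endoplasmic reticulum, and its peak at chr7:99359977-99360683 had 28 tags (control) and 85 tags (knock-down), with folds of 6.9 and 22.95. The Lcorl peak, at chr5:45875289-45876195, had folds of 10.7 and 23.9 from 37 and 99 tags. Adpgk encodes an ADP-dependent glucokinase, and its peak at chr9:59278504-59279290 had folds of 5.65 and 19.1 from 18 and 66 tags. At each of these 3 sites the tag intervals of the libraries did not overlap. Knock-down peaks were also wider there: 707 against 463 bp at Serpinh1, 907 against 526 at Lcorl and 787 against 359 at Adpgk. Tags were not scaled for width or depth.

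Some shared peaks stood in long gene-poor intervals. The peak nearest to Ncam2, a neural cell adhesion gene, was 1027 kb from it and 456 kb from any coding or lncRNA gene (fold 6.27 with shControl, 18.6 with shOpa1). Those nearest to the ubiquitin ligase gene Hace1 (807 kb; 7.53 and 16.2), the cortical transcription factor gene Nr2f1 (656 kb; 6.9 and 11.95), the small GTPase gene Arl4a (456 kb; 9.12 and 20.6) and the corepressor gene Tle4 (196 kb; 6.9 and 18.6) were also remote. Peaks nearest to Panx3, Pik3c2g, Myo16 and Zfp804a had folds of 8.78 and 20.6, 7.53 and 18.6, 6.9 and 12.9, and 5.02 and 11.5.

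The remaining 5 shared peaks were weaker in the knock-down list. Peaks nearest to Macir and Atxn7l3b had folds of 7.53 and 8.13, and 6.69 and 7.42. The peaks nearest to the histone chaperone gene Nap1l1 (6.9 and 6.21) and to Emc2 (5.65 and 4.34), a subunit gene of a membrane protein insertion complex, were the 2 whose fold fell short of the control value. The peak 5.26 kb upstream of Cwc22, a splicing factor gene, stood apart in its tags. It had the most tags of all 296 (168, from 144 to 195), yet a fold of 9.51, and in the control list 54 tags and a fold of 3.71. From start to end it spanned 1536 bp, the most of the 296, but its deposited length was 512 bp. Its score is on the second of the scales in the deposited list, as for 22 of the 296 peaks. In these 22 the interval is longer than the deposited length, so their widths do not compare with the others. Without such peaks 18 of 274 were shared (6.57%).

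At 17 of the 19 shared sites the knock-down fold exceeded the control fold, at the other 2 it was lower, and the knock-down tag number was the larger at all 19. The fold exceeded the control value at 75 of the 80 shared peaks of the whole list, 21 of 21 inside genes and 37 of 40 near gene ends. The median ratio of folds was 2.26, with a lowest value of 0.768 and a highest of 3.67 among the 19. It was 2.30 over the 21 shared peaks inside genes and 2.22 over the 40 near gene ends. At 14 of the 19 the tag intervals of the libraries did not overlap. Neither of these tag counts was made for the other classes or the whole list, so they mark nothing particular to peaks between genes. Folds and tags come from separate calls and were not scaled for depth, nor tags for the unequal peak widths. The ratio and the tag counts thus describe the lists, and the part of depth and width in them was not tested.

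**Figure D4:**
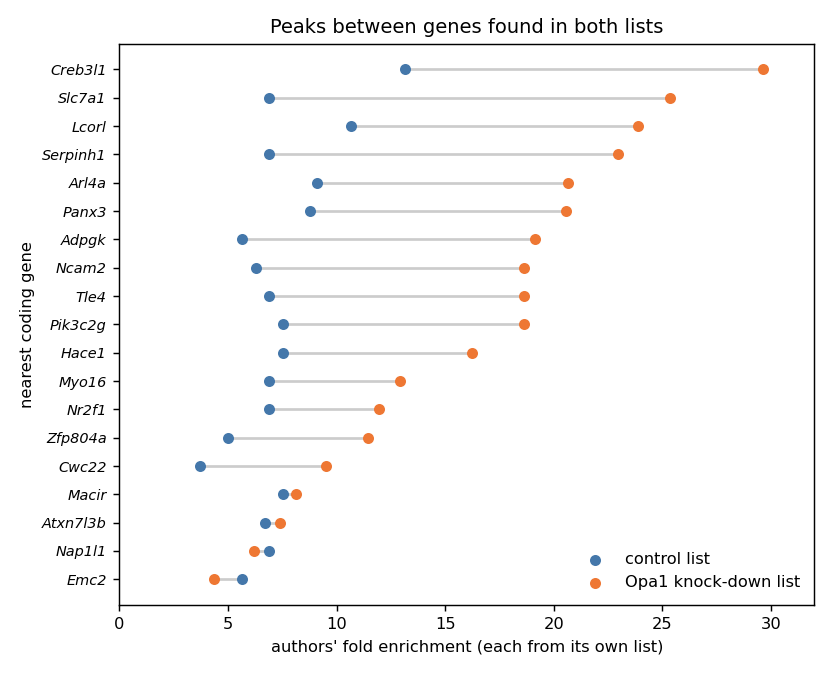
Authors' fold enrichment (linear axis) at the 19 peaks between genes found in both lists, labelled by nearest coding gene; blue points are the control list, orange the knock-down list, and each comes from its own peak call. The knock-down value is the higher at 17 sites, and lower at the Nap1l1 and Emc2 sites.

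The strongest peak with no control partner lay at chr17:45873231-45874082, with a fold of 23.9 and 97 tags (78.7 to 118). It stood 140 kb from 1600014C23Rik and 143 kb from Vegfa, the vascular endothelial growth factor gene, and 6.19 kb from the lncRNA gene 4930542M03Rik. The same stretch free of coding and lncRNA genes, 51.0 kb long, held a second unshared peak with a fold of 12.9 and 47 tags. Next came a peak of fold 21.0 and 80 tags (63.4 to 99.6) 183 kb upstream of Sox11, a transcription factor gene of young neurons, at chr12:27525331-27526200. A peak 207 kb upstream of Btg1, an antiproliferative gene, had a fold of 19.1 and 59 tags. Absence from the control list does not show that a site was unbound.

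Other unshared peaks among the 20 strongest were nearest to 1700129C05Rik (17.7), the mitochondrial ribosomal protein gene Mrpl1 (17.2), Pdia4 (15.8), the Wnt pathway inhibitor gene Nkd1 (15.8), the orphan-class receptor gene Gpr158 (15.8) and the homeobox gene Irx3 (15.3), with folds in parentheses. Pdia4 encodes a protein disulfide isomerase of the endoplasmic reticulum, and the peak was 7.17 kb downstream of it and 0.79 kb from the Y RNA gene Rny1. Over all 277 unshared peaks the median fold was 7.65.

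Distances to the nearest coding gene end had a median of 83.0 kb and ran from 5.22 to 1625 kb. The nearest end belonged to a coding or lncRNA gene at a median of 36.8 kb. Between 5 and 10 kb from a coding gene lay 34 of the 296 peaks, 10 to 50 kb 87, 50 to 100 kb 37, 100 to 500 kb 101, and beyond 500 kb 37. Strength showed no order over these bands: median folds were 8.23, 7.65, 7.65, 7.65 and 8.4, and the numbers with a fold of at least 10 were 11, 20, 10, 24 and 10. The shared peaks numbered 2, 9, 2, 3 and 3. Peaks with a fold of at least 10 had a median distance of 68.8 kb, and the rest 87.2 kb.

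**Figure D5:**
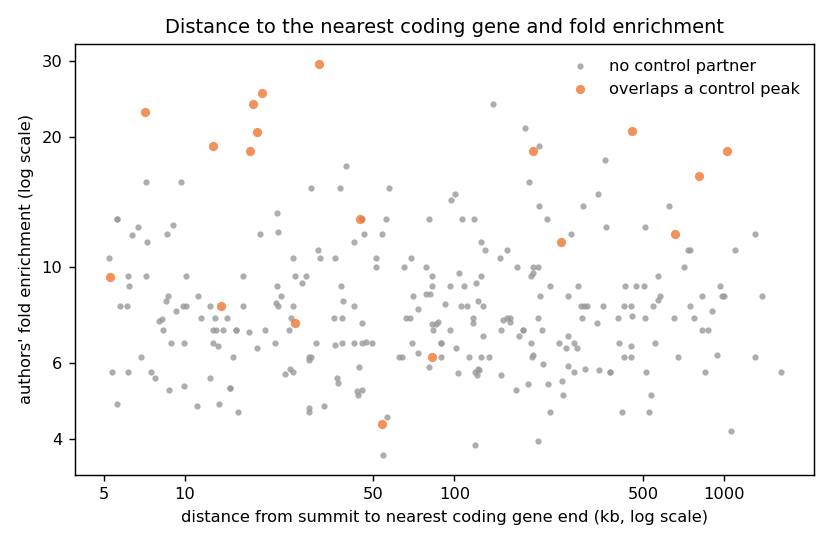
Authors' fold enrichment against the distance from the summit to the nearest coding gene end (both axes log scale) for the 296 knock-down peaks between genes; orange points overlap a control peak. Folds above 18 occurred from the Serpinh1 site (7.09 kb, fold 22.95) to the Ncam2 site (1027 kb, fold 18.6), and peaks farther out had folds of 4.18 to 11.95.

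The 5 most remote peaks lay 646 to 968 kb from any coding or lncRNA gene, had folds of 5.74 to 11.0 and 21 to 43 tags, and none overlapped a control peak. The farthest, at chr3:42770813-42771424, was 968 kb from D3Ertd751e in a gene-free interval of 3477 kb (fold 9.08, 30 tags). The strongest of the 5, with a fold of 11.0, was 746 kb from Zpld1.

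Side of the gene could be read for 239 of the 296 peaks, those whose nearest coding gene has a strand in the RefSeq promoter table. Of these, 134 lay upstream and 105 downstream (56.1% upstream, 49.5 to 62.5). Among the other knock-down peaks outside coding genes, which include some inside lncRNA genes, 106 lay upstream and 40 downstream (72.6%, 64.6 to 79.7). Within 50 kb of the nearest coding gene, peaks between genes were upstream in 54 and downstream in 44 cases.

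The nearest coding genes were compared with gene lists, as a description. Genes of the integrated stress response and its known outputs were nearest to 1 of the 296 peaks, to 1 of the 359 inside genes and to 20 of the 297 near gene ends (22 of all 952, or 2.31%). The 1 between genes lay 83.1 kb downstream of Stc2, a secreted glycoprotein gene (fold 7.17). Another peak (4.61, 20 tags) had the bZIP gene Atf3 as a flanking gene within 100 kb and Nenf nearer. Enzymes of amino acid and one-carbon metabolism were nearest to 1 (Got2, 1306 kb away, fold 6.21), to 2 inside genes and to 11 near gene ends (1.47% of all). Listed tRNA synthetases, nearly all of them cytosolic, were nearest to 2 (both Tars), to 0 inside genes and to 12 near gene ends (1.47% of all). Amino acid transporters were nearest to 2, to 4 inside genes and to 5 near gene ends (1.16% of all). The 2 were the Slc7a1 peak and a peak of fold 5.18 and 27 tags 43.7 kb upstream of Slc38a2, a neutral amino acid transporter gene. Over all lists together, 26 of the 296 peaks (8.78%) had a listed gene as the nearest, against 14.0% of all knock-down peaks.

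Transcription factors of cortical development were nearest to 8 of the 296 peaks (2.70%), to 6 inside genes (1.67%) and to 1 near gene ends (0.337%), with 15 of all 952 (1.58%). Besides the Sox11 and the shared Nr2f1 peak, these were a peak 342 kb upstream of Zeb2 (fold 14.8, 57 tags), a further Nr2f1 peak (8.13), and peaks nearest to Satb1 (9.08), Meis1 (8.22), Sox2 (7.65) and Meis2 (5.74). Adhesion and synaptic genes were nearest to 10 of the 296 (3.38%), to 5 of 297 near gene ends (1.68%), to 31 of 359 inside genes (8.64%) and to 4.83% of all knock-down peaks. They included Cdh10 (13.9), the GABA-A receptor gene Gabra2 (12.9), Cdh11 (11.0 and 8.6), Slitrk1 (11.0), Adgrl2 (8.6), Opcml (6.61), Slitrk6 (5.64) and Cdh9 (4.18), at 36.2 to 1103 kb. Genes of the bZIP list were nearest to 2 of the 296 (0.676%), to 3 inside genes and to 5 near gene ends (1.05% of all). The 2 were Creb3l1 and Nfe2l3 (fold 8.34, 8.54 kb upstream). Core clock genes were nearest to 0, to 1 inside genes and to 3 near gene ends (0.420% of all). Markers of glia and vessels were nearest to 0 of the 296 and to 0 of all 952. The marker gene Olig1 flanked a peak near Ifnar2 within 100 kb (7.17). Many developmental genes stand beside long gene-free intervals, which a nearest-gene count favours; the part of interval length in these counts was not tested.

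Most peaks between genes stood alone, as did most peaks of the other classes. Within 10 kb of another knock-down peak lay 4 of 296 (1.35%, 0.369 to 3.42). The same held for 10 of 359 inside genes (2.79%) and 15 of 297 near gene ends (5.05%). The 4 between genes formed 2 pairs, both without control partners. A pair 2.16 kb apart lay 9.02 and 11.2 kb downstream of Esp38, an exocrine peptide gene, with folds of 12.5 and 8.6. The other, 2.65 kb apart, lay 125 and 128 kb upstream of Tars, the threonyl-tRNA synthetase gene, with folds of 6.21 and 8.13. Within 100 kb of another peak lay 25 (8.45%), against 14.8% inside genes and 18.5% near gene ends. The 296 peaks fell into 283 separate gene-free intervals, 270 with 1 peak and 13 with 2. Those intervals had a median length of 176 kb, against 35.3 kb for all 15855 gene-free intervals over 10 kb. A longer interval offers more positions, and the part of this in the difference was not tested.

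Some of the 282 coding genes nearest to these peaks carried a knock-down peak of their own. A peak inside the gene or within 5 kb of its ends was found at 17 of them (6.03%, 3.55 to 9.48), against 581 of all 21887 coding genes (2.65%). The 282 genes were longer, with a median of 43.1 kb against 17.2 kb, and the part of gene length in these shares was not tested. Besides Slc7a1, they included Tars (fold 8.6, 31 tags), Slc38a2 (10.5, 39 tags, 579 bp from a gene end), Stc2 (8.13, 1.60 kb) and Cdk17 (8.6, 4.52 kb). The peaks at Dlgap1 (12.4) and Trpm3 (6.21) lay inside the gene, and that in Trpm3 overlapped a control peak.

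Of the 227 such genes in the RefSeq promoter table (GRCm38.p6, the coordinates of mm10), Slc7a1 and Tars had a knock-down peak over the promoter, and their sequences are shown because these genes have both a promoter peak and a remote one. Printed are the 250 bases before the annotated start, on the minus strand, with matches to the composite element TGATGNAA, the AP-1 element TGANTCA or the cyclic AMP response element TGACGTCA, sought on both strands, in capitals. The windows are chr15:11399659-11399908 for Tars and chr5:148399905-148400154 for Slc7a1.
Tars: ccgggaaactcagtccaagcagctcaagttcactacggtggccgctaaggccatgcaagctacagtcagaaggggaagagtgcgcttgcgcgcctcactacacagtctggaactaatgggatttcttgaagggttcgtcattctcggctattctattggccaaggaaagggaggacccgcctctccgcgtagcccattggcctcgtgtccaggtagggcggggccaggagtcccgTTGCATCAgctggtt
Slc7a1: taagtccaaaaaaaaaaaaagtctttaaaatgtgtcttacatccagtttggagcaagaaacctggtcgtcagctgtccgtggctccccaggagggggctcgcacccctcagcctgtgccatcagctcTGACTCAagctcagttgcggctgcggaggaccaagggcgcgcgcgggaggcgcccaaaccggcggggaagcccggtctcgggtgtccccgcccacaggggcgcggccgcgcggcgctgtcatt
The Tars window held 1 composite match, read on the opposite strand, 8 to 15 bp before the start and inside the peak, whose summit was 63 bp from the start. The Slc7a1 window held an AP-1 match 117 to 123 bp before the start, outside the peak, and no composite match. Of all 32851 promoter windows of this length, 3.45% held the composite element, 6.75% the AP-1 element and 1.55% the cyclic AMP response element. Sequences of the peaks between genes themselves were not used here.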

How the data were processed

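The authors' deposited peak lists of the ATF4 libraries were analysed, 1 library per condition and 2 in all, matched by the hairpin in each list's name. Build mm10 and MACS2, deepTools and MultiQC stand in the submitters' processing notes. Aligner, calling controls, thresholds and sequencing depth: not given in the sources used here. Fold (a ratio), score, summit and tag count are deposited values that describe a peak within its list. The deposited score has 2 scales. On the first, 274 peaks between genes have a score of at least 50.1 and a length equal to the interval. The other 22 have another score, a length shorter than the interval and a lower median fold (4.94). Widths given here are those of the interval. In 4 of these 22 the tag number is not whole.

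Starts were read as 1-based, inferred from the lengths. Genes were those of RefSeq's GRCm38.p6 table on autosomes, X and Y (34614 coding and lncRNA genes, 21887 of them coding), and strand was read from the promoter table. Distances run from the summit to the nearer gene end, and overlap meant at least 1 bp. The steps were tested on simulated data, with Python 3.11.15 and scipy 1.17.1 (numpy 2.4.6, pandas 2.3.3; figures, matplotlib 3.10.9).

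Named peaks are the 20 with the highest fold (ties by tags), those shared with the control list, those nearest to or flanked within 100 kb by a listed gene, the 5 most remote, those within 10 kb of another peak and those at the 5 kb limit. The Mageb18 peak, the second peak near Vegfa and the genes with a peak of their own were named after their values were seen. Peaks and gene lists were chosen with earlier results of these data known. Alternatives covered the distance limit, gene set, point placed, reading of starts, score, fold, merging, overlap rule and score scale. Some peaks that these rules name are not reported here. A motif search in the peaks was planned and not run for lack of genome sequence here.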

Additional observations from a re-analysis of the deposited data

How the results depend on the processing

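With only the higher-scoring part of each list, 135 knock-down peaks lay between genes, their median fold was 10.5 and 14 had a listed gene as the nearest. With a fold of at least 10, 75 peaks were left and 10 had a listed gene as the nearest. Of the 75, 18.7% overlapped a control peak, against 23.2% of all knock-down peaks with such a fold. Both settings enter fewer peaks by construction. With the higher-scoring parts the control list was cut too, so fewer control peaks were left as partners. The 4.44% shared at that setting (6 of 135) is among the values below, but it cannot show whether the share held. The other 24 of 30 values stayed within 1.5 times the reported count or within the reported 95% interval: 249 to 380 peaks between genes (the highest with coding genes alone), a shared share of 4.44 to 7.37%, a median fold of 7.65 to 8.13, and 24 to 33 peaks nearest to a listed gene. Reading starts as 0-based left 296 peaks and 19 shared. Peaks are placed by the summit alone, so that count of 296, which is among the 24 values, could not change. Matching summits within 200 bp left 19 shared, and a reciprocal overlap of 50% left 15 shared. The score scale and the nearest-gene settings were chosen after the data were seen. No paired analysis was possible because the conditions have 1 library each, and no replicate could be left out. The motif alternatives were not run. Depth is unknown, and no background from IgG or input stands beside the peaks.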

Other observations

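Of the 25 control peaks between genes, 6 had no knock-down partner. They included peaks nearest to Prl2c3 (fold 6.47, 28 tags), Zfp996 (6.32, 17 tags), Rfpl4b (6.27, 15 tags), Fzd8 (5.65, 16 tags) and Dok6 (4.86, 17 tags). These genes were named after their values were seen.

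Genes other than coding and lncRNA genes did not enter the rule, and 15 of the 296 knock-down peaks between genes lay inside or within 5 kb of one, 10 of them a pseudogene. The shared peak nearest to Panx3 (fold 20.6) was 0.692 kb from the pseudogene Gm8343, and the shared Zfp804a peak (11.5) was 0.865 kb from Gm13675. A peak of fold 12.4 and 41 tags lay inside the T cell receptor alpha locus Tcra. The part of duplicated sequence in these peaks was not tested.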
